A study of Homo sapiens with 6 samples.

Results

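The genes described here are 10 interferon-induced antiviral effectors, PML, SP100, SP110, BST2, PLSCR1, SAMD9, SAMD9L, CMPK2, RSAD2 and EPSTI1, of 24135 genes whose transcription start sites (TSSs) were examined. They were chosen by name, and for each of them the ChIP-seq regions within 1 kb of any of its annotated TSSs were collected. The cells were HSC3, an established oral squamous cell carcinoma line, transfected with a control siRNA (siCONT) or with an siRNA against the lncRNA DLEU1 (siDLEU1; the siRNA that the study names siDLEU1-2) and collected 72 h later. Histone H3 lysine 27 acetylation (H3K27ac) and lysine 4 trimethylation (H3K4me3) were each profiled in 1 library per siRNA, so the spread between cultures is unknown and nothing was tested. The knockdown itself cannot be read from these libraries, because siRNAs lower the RNA and not the marks of the gene directly.

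Many genes that answer interferon carry one of 2 short promoter sequences, the interferon-stimulated response element (ISRE) or the gamma-activated site (GAS). H3K4me3 marks promoters and H3K27ac marks active promoters and enhancers. The products of these genes block viruses at many steps, from nuclear bodies that silence viral genomes (PML, SP100) to a tether that holds budding virions at the membrane (BST2) and enzymes of nucleotide metabolism (CMPK2, RSAD2).

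The promoter sequences below are shown because the TSS windows of these genes are where the marks were compared. The ISRE core was searched as GAAANNGAAA on both strands from 250 bases before the canonical TSS to 50 bases after it, and matches may overlap each other or a GAS. It was found in 5 of the 10 promoters, BST2, PLSCR1, SAMD9, RSAD2 and EPSTI1, against 3.43% of all 24135 promoters of the same length. The GAS letters TTCNNNGAA, which read the same on both strands, were found in 4 promoters, SP110, BST2, PLSCR1 and EPSTI1, against 6.87% of all promoters. A match of letters is a description of the sequence and not a measured binding site. The stretches around each ISRE core are given 5′ to 3′ in the direction of the gene, from the GRCh37 assembly, with the core in capitals.
BST2 (chr19:17516519-17516604, minus strand): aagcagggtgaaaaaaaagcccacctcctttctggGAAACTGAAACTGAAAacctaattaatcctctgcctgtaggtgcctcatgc
PLSCR1 (chr3:146262429-146262508, minus strand): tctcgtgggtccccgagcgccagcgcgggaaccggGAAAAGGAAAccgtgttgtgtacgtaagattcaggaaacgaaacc
SAMD9 (chr7:92747384-92747463, minus strand): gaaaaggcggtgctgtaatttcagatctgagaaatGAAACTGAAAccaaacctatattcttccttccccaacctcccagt
RSAD2 (chr2:7017728-7017807, plus strand): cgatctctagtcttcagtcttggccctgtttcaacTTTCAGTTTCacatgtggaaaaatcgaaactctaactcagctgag
EPSTI1 (chr13:43566383-43566462, minus strand): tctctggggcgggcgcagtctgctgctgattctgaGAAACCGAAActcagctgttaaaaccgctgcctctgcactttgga

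In BST2 the 2 cores overlapped and lay between 130 and 115 bases before the TSS, and in RSAD2 the core lay on the opposite strand. For comparison, the 100 bases before the canonical TSS are shown for SAMD9L and CMPK2. Like PML and SP100, whose stretches are not shown, these genes held a region in control cells but none of the searched letters. Base composition differed widely among the promoters. GC content over the 300 bases was 34.3% at SAMD9L, with 0 CpG dinucleotides, and 75.7% at CMPK2, with 38. The median of the 10 promoters was 56.3% GC and 8.5 CpG, and that of all promoters was 62% GC and 21 CpG.
SAMD9L (chr7:92777699-92777798, minus strand): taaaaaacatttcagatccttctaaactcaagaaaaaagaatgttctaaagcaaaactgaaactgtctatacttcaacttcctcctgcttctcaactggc
CMPK2 (chr2:7006039-7006138, minus strand): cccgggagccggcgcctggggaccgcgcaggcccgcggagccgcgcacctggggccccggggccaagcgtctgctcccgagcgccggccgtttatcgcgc

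The peak lists held 19705 H3K27ac regions under siCONT and 17672 under siDLEU1, and 58582 and 56943 H3K4me3 regions. Depth is not written in the lists, but the number of fragments at each summit could be solved from its fold enrichment and p. Under an assumed genome of 2.7 Gb, the H3K27ac libraries came to 21.5 M reads for siCONT and 29.4 M for siDLEU1. The H3K4me3 libraries came to 28.4 M for siCONT and 22.3 M for siDLEU1, so the deeper library was not of the same siRNA for both marks. Numbers of fragments not given per 10 M reads are raw counts, which depth alone can make differ. The presence and width of called regions were likewise not adjusted for depth. All 10 squamous markers examined (TP63, KRT5, KRT14 and others) had a region of each mark in every list. Of 9 markers of blood, endothelial, fibroblast and muscle cells found in the annotation, 2 had an H3K27ac region and 3 an H3K4me3 region under either siRNA.

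Of the 10 antiviral genes, all had an H3K27ac region at a TSS in control cells and 5 had none in siDLEU1 cells, namely BST2, SAMD9, SAMD9L, CMPK2 and RSAD2. CMPK2 and RSAD2 shared a single region, so 4 separate regions were involved. Among all 13592 genes with an H3K27ac region in control cells, 5.61% had none in siDLEU1 cells. H3K4me3 was present at 8 of the 10 genes in control cells, and 2 of them, BST2 and SAMD9L, had no region in siDLEU1 cells, against 3.24% of 13669 genes. With regions limited to a −log10 q of at least 10, BST2 and SAMD9 had no H3K27ac in control cells. SP100 and SP110 then joined SAMD9L, CMPK2 and RSAD2 as genes with none left, which made 5 of 8, against 15.4% of all genes. Under that limit SAMD9L had no H3K4me3 in control cells. BST2 and SAMD9 were the genes with no H3K4me3 left, which made 2 of 7, against 4.35% of all genes. No gene of the 10 had a region in siDLEU1 cells alone, as 38 of 24135 genes did for H3K27ac and 382 for H3K4me3. For H3K27ac none of the 10 could, since all had a region in control cells. For H3K4me3 only CMPK2 and RSAD2 could. At the level of regions, 4 of 10 H3K27ac regions at these genes in control cells were not overlapped by any region in siDLEU1 cells, against 15.3% of all regions at TSSs, and 5 of 16 H3K4me3 regions were not, against 12.6%. In the other direction, none of the 6 H3K27ac and none of the 10 H3K4me3 regions of siDLEU1 cells lacked an overlapping region in control cells, against 0.905% and 8.29% of all regions at TSSs.

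Because fold enrichment depends on the depth of each library and its input, the strongest region of a gene was placed by its percentile within its own list, with 100 for the top region and 0 where no region was called. The H3K27ac percentile was lower in siDLEU1 cells at 9 of the 10 genes, against 62.8% of all genes, and lower by at least 10 points at 5, against 36.9%. It was higher by at least 10 points at 1, EPSTI1, against 16.7%. The median difference was −16.7 points, against −4.60 over all genes, with genes that had no region left set to 0 in siDLEU1 cells. It counts the region shared by CMPK2 and RSAD2 for each of them, and was −8.89 with that region counted once. Over genes called under both siRNAs it was also −8.89, against −3.71, and with a −log10 q of at least 10 it was −9.39 against −11.2, so the order of the antiviral genes and all genes turned. Among the 8 genes with H3K4me3, 5 had a lower percentile, against 48.1% of all genes. It was lower by at least 10 points at 4, against 19.1%, and higher by as much at none, against 18.4%, with a median of −9.03 points against 0.248. With regions ranked by recovered fragments in place of fold enrichment, H3K27ac was lower at all 10 genes, against 70.8%, and H3K4me3 at all 8, against 46.9%. A list of other interferon-stimulated genes, chosen with earlier results of these data known, had the same direction. For H3K27ac that was also the direction of all genes. Of the 55 listed genes in the annotation, 52 had an H3K27ac region in control cells. Of these, 38 were lower, 14 higher and 10 had no region left, with a median of −20.8 points. For H3K4me3, 38 of 53 were lower, 15 were higher and 4 had no region left, with a median of −6.23 points.

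**Figure D1:**
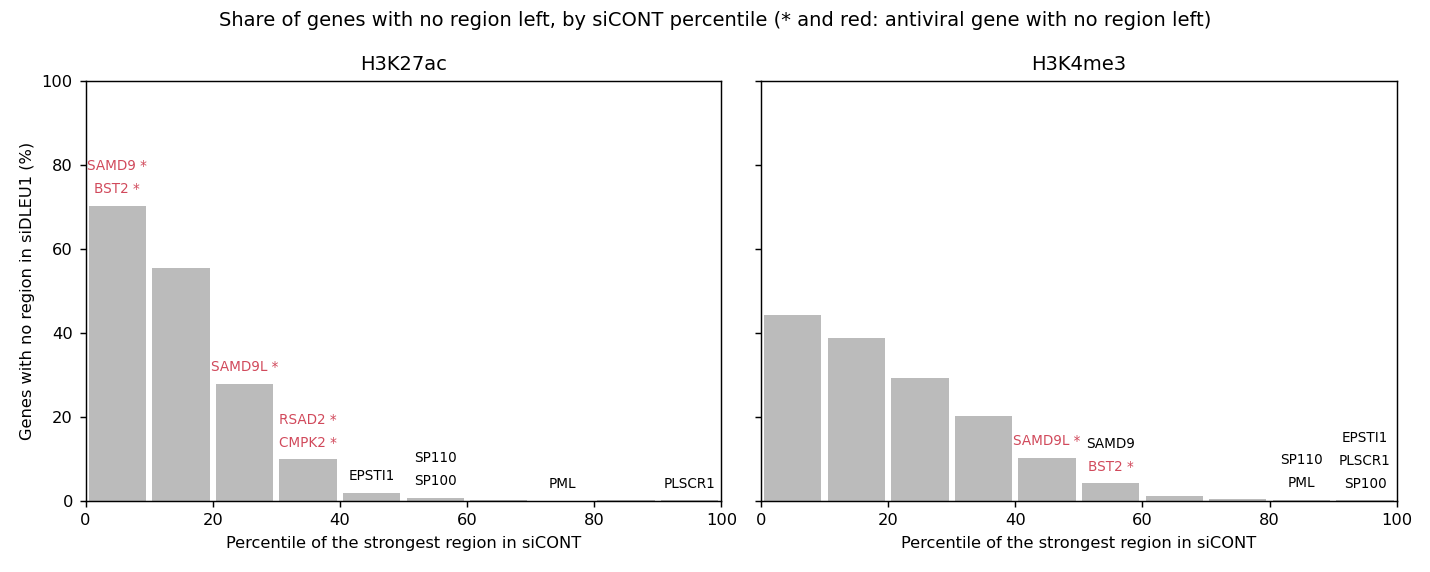
Share of all genes with no region in siDLEU1 cells (grey bars, percent) by the percentile of their strongest region in control cells, in steps of 10 points, for H3K27ac (left) and H3K4me3 (right). Gene names stand over their bar, and those in red with an asterisk had no region left. The genes without H3K27ac in siDLEU1 cells all lay under percentile 40 in control cells, where the share ran from 70.3% down to 9.89%.

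Weak regions are those that a list drops most easily, and the plot of genes with no region left by percentile shows where each gene began. BST2 and SAMD9 had H3K27ac percentiles of 6.79 and 8.11 in control cells, in the 10-point step where 70.3% of 320 genes had no region left. SAMD9L, at 29.0, lay in a step where 27.9% of 574 genes had none, and CMPK2 and RSAD2, at 31.5, in one where 9.89% of 829 had none. The genes that kept H3K27ac began higher, in steps where the share was 1.97% (EPSTI1), 0.732% (SP100 and SP110), 0.048% (PML) and 0.0796% (PLSCR1). For H3K4me3 the share was 10.2% of 577 genes in the step of SAMD9L, which started at percentile 48.5. It was 4.13% of 847 genes in the step of BST2, which started at 56.8, and of SAMD9, which kept its regions at the deposited threshold. PML and SP110 lay where the share was 0.222%, and SP100, PLSCR1 and EPSTI1 where it was 0.0871%.

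The number of fragments at the summit, unlike fold enrichment, is not divided by the local background. It is given here as the highest of any region in the window per 10 M reads, with the depth solved from the scaling of the control library, and with a 95% Poisson interval that covers counting error only. In control cells H3K27ac was highest at PLSCR1 (79.2), followed by EPSTI1 (49.4), PML (44.7), SP110 (33.5), SP100 (30.3), the region shared by CMPK2 and RSAD2 (19.6), SAMD9L (18.6), SAMD9 (10.2) and BST2 (9.31). Only PLSCR1 and EPSTI1 were neighbours in this order whose intervals did not overlap (67.7 to 92.0 and 40.4 to 59.7). In siDLEU1 cells the order was PLSCR1 (40.1), EPSTI1 (26.2), PML (23.8), SP110 (14.6) and SP100 (9.18). These 5 genes stood in the same order as in control cells, and again PLSCR1 and EPSTI1 (33.2 to 48.1 and 20.7 to 32.7) were the neighbours whose intervals did not overlap.

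**Figure D2:**
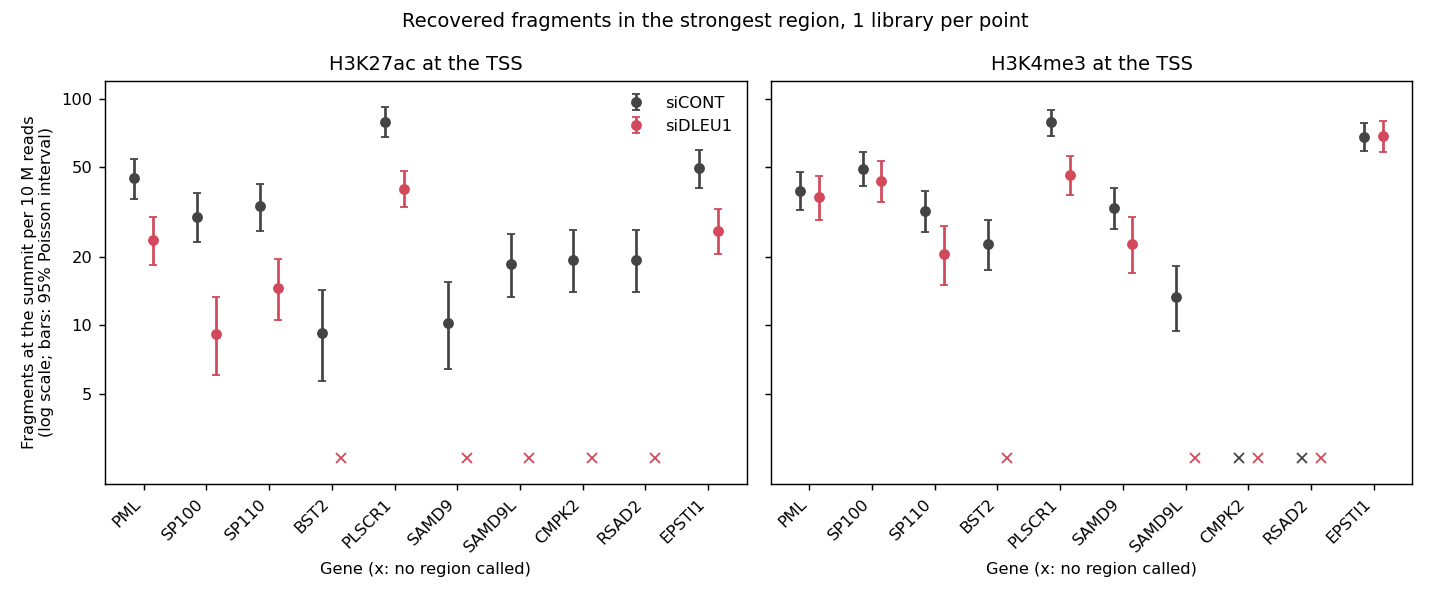
Recovered fragments at the summit of the highest region per 10 M reads (log axis) for each gene, for H3K27ac (left) and H3K4me3 (right), with siCONT in dark grey and siDLEU1 in red. Points are single libraries, bars are 95% Poisson intervals and crosses mark genes with no called region. H3K27ac is lower in siDLEU1 cells at every gene that kept a region, and H3K4me3 at EPSTI1 stands at 68.2 and 68.6.

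H3K27ac per 10 M reads was lower in siDLEU1 cells at nearly all genes, with a median ratio of 0.580 over the 12829 genes called under both siRNAs. Of these, 99.3% had a ratio under 1. Differences between immunoprecipitations enter this ratio, and their part in it was not tested. All 5 antiviral genes with a ratio were under 1, a share near that of all genes. Their ratios were 0.303 at SP100, 0.436 at SP110, 0.507 at PLSCR1, 0.531 at EPSTI1 and 0.533 at PML. SP100 and SP110 were under 0.5, as were 14.3% of all genes. The counting interval of SP100 (0.186 to 0.482) lay below the median of all genes, as did those of 2.06% of all genes, and the intervals of the other 4 held it. Only 0.171% of genes had a lower ratio than SP100.

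For H3K4me3 the median ratio over 13226 genes was 1.16, and 26.9% of genes had a ratio under 1. Of the 6 antiviral genes with a ratio, 5 were under 1 and none was under 0.5, as 0.469% of all genes were. The ratios were 0.586 at PLSCR1, 0.644 at SP110, 0.691 at SAMD9, 0.883 at SP100, 0.933 at PML and 1.005 at EPSTI1. The counting intervals of PLSCR1 (0.459 to 0.743), SP110 (0.442 to 0.928), SAMD9 (0.482 to 0.982) and SP100 (0.674 to 1.152) lay below the median of all genes, which makes 4 of 6, against 10.7% of all genes. Those of PML and EPSTI1 held it. At PLSCR1, 1.20% of genes had a lower ratio, and at SP110 2.08%. The intervals take no account of differences between cultures or immunoprecipitations, which cannot be measured with 1 library each.

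**Figure D3:**
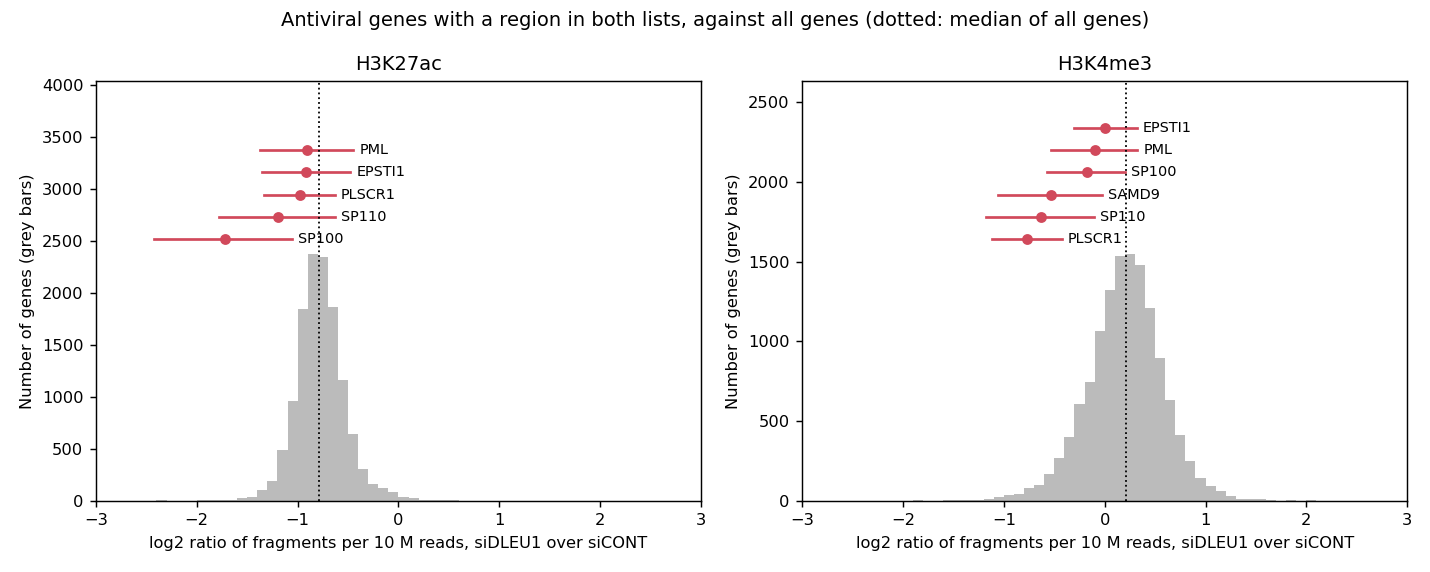
Ratio of fragments per 10 M reads, siDLEU1 over siCONT, on a log2 axis for H3K27ac (left) and H3K4me3 (right). Grey bars count all genes called under both siRNAs, the dotted line is their median, and red points with lines are the antiviral genes with 95% counting intervals, placed at arbitrary heights. SP100 is the antiviral gene farthest below the H3K27ac median (0.303 against 0.580), and PLSCR1 the farthest below the H3K4me3 median (0.586 against 1.16).

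PML and SP100 are organizers of PML nuclear bodies, in which incoming viral genomes are silenced, and SP110 is a related nuclear body protein. PML (plus strand, chr15:74287014-74340168) has 16 annotated TSSs, and within the TSS windows regions were called only at its 5′ end. In control cells 2 H3K27ac regions flanked the canonical TSS, at chr15:74286609-74286940 upstream and chr15:74287081-74288045 over exon 1 and intron 1. In siDLEU1 cells they were 265 and 810 bp wide instead of 332 and 965 bp, and the percentile of the stronger was 65.7 instead of 74.6. The summit of the downstream region held 96 fragments in control cells and 70 in siDLEU1 cells. H3K4me3 was called as 3 regions in each list, and its covered length was 1552 and 1530 bp, the smallest difference of any of the 8 genes with this mark. The TSSs of STOML1, a gene on the opposite strand, share the PML window, so the upstream signal cannot be assigned to either gene.

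At SP100 (plus strand, chr2:231280657-231410321) the difference was greater in H3K27ac than in H3K4me3. H3K27ac covered 1120 bp in control cells, at chr2:231280859-231281978, and 656 bp at chr2:231280657-231281312 after siDLEU1. The summit moved from 416 to 180 bp downstream of the canonical TSS, and the fragments there numbered 65 (50.2 to 82.8) and 27 (17.8 to 39.3). The H3K27ac percentile was 51.7 and 8.45, a difference of −43.3 points, the largest of the 10 genes. The H3K4me3 percentile was 90.5 and 91.4, a difference of 0.88 points that was −1.68 with ranks by −log10 p and −6.73 with ranks by fragments. H3K4me3 fragments at the summit numbered 140 and 97, or 49.2 and 43.5 per 10 M reads. The covered length of H3K4me3 was shorter by 832 bp, at 2268 and 1436 bp, because a second region of 339 bp at exon 2 was not called and the main region was narrower.

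SP110 lies on the minus strand at chr2:231029902-231090444. Over its exon 1 the H3K27ac region measured 586 bp in control cells against 438 bp after siDLEU1, with 72 and 43 fragments at summits 193 and 212 bp into the gene, and its percentile was 57.2 and 32.7. H3K4me3 was called over exon 1 and upstream of the TSS in both lists. The exon 1 region had 77 fragments under siCONT and 32 under siDLEU1, and the upstream region had 91 and 46, with widths of 1913 and 871 bp. By percentile the stronger was the exon 1 region in control cells (80.2) and the upstream region in siDLEU1 cells (65.9), so that difference of −14.3 points is not that of a single place. The GAS letters of SP110, at chr2:231084729-231084737, lay inside the H3K27ac region of control cells and outside that of siDLEU1 cells.

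BST2 encodes tetherin, which holds budding enveloped viruses at the cell surface, and PLSCR1 encodes a phospholipid scramblase with antiviral activity. BST2 (minus strand, chr19:17513748-17516439) had the greatest difference in H3K4me3 percentile of the 10 genes, at 56.8 under siCONT and 0 under siDLEU1. Control cells had 3 H3K4me3 regions. They were chr19:17516712-17517311 upstream of the TSS with 65 fragments, chr19:17515657-17516391 over exon 1 and intron 1 with 43, and chr19:17515217-17515481 at intron 1 and exon 2 with 26. In siDLEU1 cells there was none within 1 kb of a TSS, nor anywhere in the gene with 10 kb on either side, where control cells had 5. The covered length was 1600 and 0 bp. At the median ratio of all genes, the upstream region would have had 26.5 fragments per 10 M reads in siDLEU1 cells, a value that exceeds that of 68.3% of the regions called there.

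The H3K27ac region of BST2 was weak in control cells, at chr19:17515843-17516151 with 20 fragments (12.2 to 30.9). Scaled by the median ratio of all genes it would have had 5.40 fragments per 10 M reads in siDLEU1 cells, under the 6.46 of the lowest region called in that list. The absence of an H3K27ac region at BST2 in siDLEU1 cells was therefore not distinguishable at this depth from the shift in H3K27ac fragments over all genes. The same held at SAMD9, with a scaled value of 5.94. The overlapping ISRE cores of BST2 lay outside every region of all 4 lists, in the gap between the upstream and the exon 1 regions. The upstream H3K4me3 region also held TSSs of BISPR, a lncRNA gene, and of MVB12A, both on the opposite strand.

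PLSCR1 (minus strand, chr3:146232967-146262643) carried the strongest H3K27ac region of the 10 genes. It ranked at percentile 98.2 in control cells, with 170 fragments, and at 96.6 in siDLEU1 cells, with 118. The region was 1612 bp wide, at chr3:146260917-146262528, and 1252 bp wide, at chr3:146261592-146262843. It reached less far into intron 1 and farther upstream in siDLEU1 cells, so the covered length of the TSS windows was 1221 and 1252 bp, and PLSCR1 was the gene of the 10 where H3K27ac was not shorter. The summit stood 184 and 187 bp into the gene. H3K4me3 had 224 fragments at a summit 140 bp into the gene in control cells and 103 at 139 bp in siDLEU1 cells, and its percentile was 99.7 and 92.8. A separate upstream H3K4me3 region of 503 bp in control cells was part of a single region of 1394 bp in siDLEU1 cells. The ISRE core at chr3:146262464-146262473 lay inside the regions of all 4 lists.

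**Figure D4:**
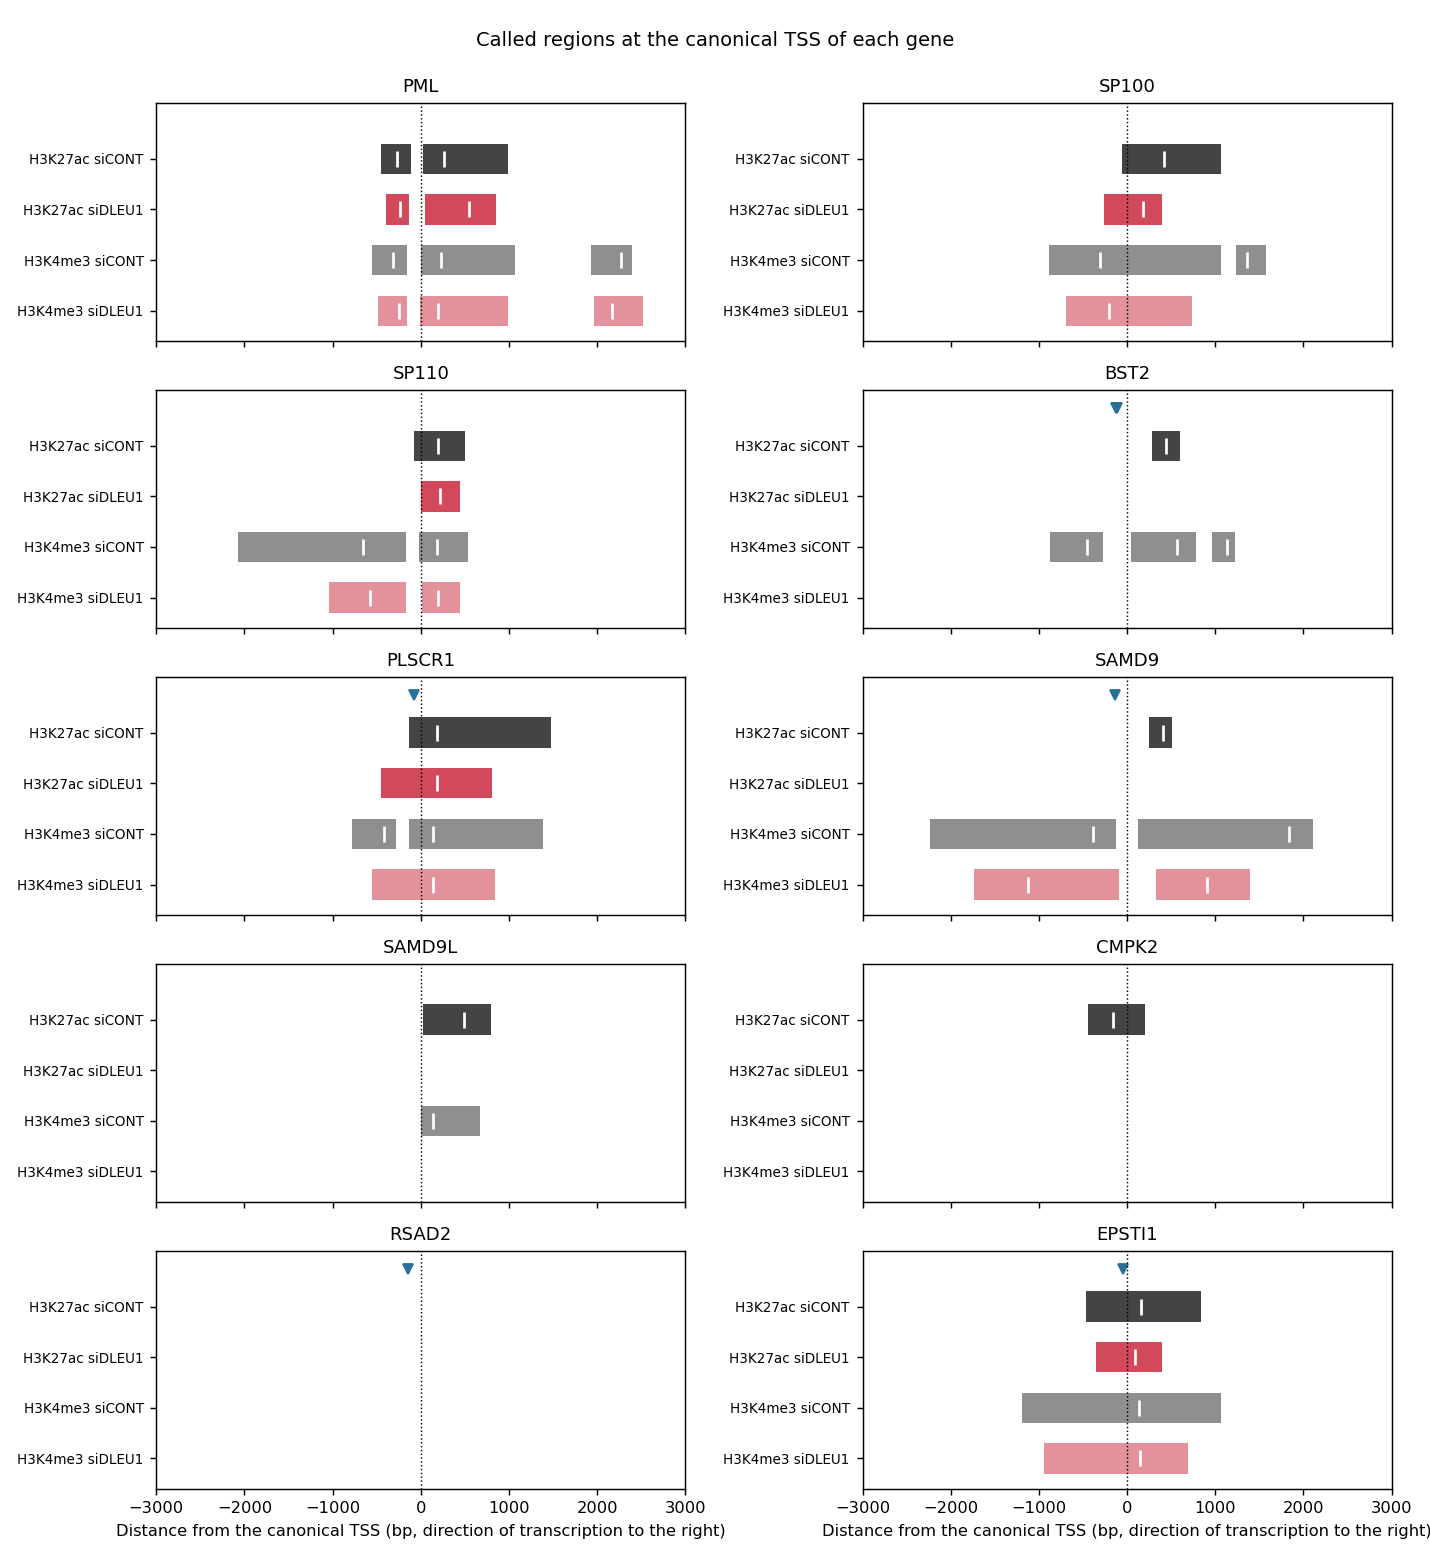
Called regions of the TSS windows drawn around the canonical TSS of each gene (dotted line; distance in bp, transcription to the right), with H3K27ac above H3K4me3 and siCONT (grey) above siDLEU1 (red). White ticks are summits and blue triangles are ISRE cores between 250 bases before and 50 after the TSS. SAMD9L and BST2 have no region of either mark in siDLEU1 cells, and RSAD2 has none at its canonical TSS under either siRNA.

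SAMD9 and its paralog SAMD9L are neighbouring genes on the minus strand of chromosome 7, and their cytoplasmic products restrict poxviruses. The marks at the pair differed. SAMD9 (chr7:92728826-92747336) had an H3K27ac region of 255 bp in intron 1 in control cells, with 22 fragments (13.8 to 33.3), and none in siDLEU1 cells. Its H3K4me3 was kept as 2 regions on either side of the TSS. The upstream region had 94 and 51 fragments and was 2112 and 1637 bp wide, and the region in intron 1 was 1979 and 1069 bp wide. The percentile of the upstream region was 58.9 and 27.4 and that of the intron region 54.4 and 47.8, so the strongest was not the same region in both lists. The local background at the upstream summit was 2 fragments of the control library in each list. The covered length was 1809 and 1643 bp. The ISRE core of SAMD9 lay inside the upstream H3K4me3 region of each list, at its very edge in control cells, and in no H3K27ac region.

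SAMD9L (chr7:92759369-92777698) had a region of each mark at its TSS in control cells, and none of either there in siDLEU1 cells. The H3K27ac region was 776 bp wide, at chr7:92776897-92777672 over exon 1 and intron 1, with 40 fragments (28.6 to 54.5). The H3K4me3 region was 666 bp wide, at chr7:92777029-92777694, with 38 fragments (26.9 to 52.2). Scaled by the median ratios of all genes, these would have had 10.8 fragments per 10 M reads for H3K27ac and 15.5 for H3K4me3 in siDLEU1 cells, above 6.91% and 40.3% of the regions called there. Away from the TSS, 1 H3K4me3 region of 225 bp was still called within 10 kb of the gene. At the deposited threshold, SAMD9L and BST2 were the genes of the 10 where both marks were called at a TSS in control cells and neither in siDLEU1 cells. With a −log10 q of at least 10 neither gene was, since each then lacked one of the marks in control cells.

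CMPK2 encodes a mitochondrial nucleotide kinase, and RSAD2 encodes viperin, a radical SAM enzyme that makes a chain-terminating nucleotide from CTP. They lie next to each other on chromosome 2 and are transcribed in opposite directions, CMPK2 from the minus strand (chr2:6980701-7006766) and RSAD2 from the plus strand (chr2:7005688-7038370). In control cells a single H3K27ac region of 643 bp, at chr2:7005835-7006477, covered the canonical TSS and part of exon 1 of CMPK2 and alternative TSSs of RSAD2. Its summit stood at −163 bp from the CMPK2 TSS and held 42 fragments (30.3 to 56.8). In siDLEU1 cells no region was called in either gene or within 10 kb of it. Scaled by the median ratio of all genes, the region would have had 11.3 fragments per 10 M reads, above 9.51% of the regions called in siDLEU1 cells.

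The canonical TSS of RSAD2, at 7017908, had no region of either mark within 1 kb under either siRNA, although its promoter held an ISRE core. H3K4me3 was not called at CMPK2 or RSAD2 under either siRNA. H3K27ac at RSAD2 is thus that of the CMPK2 promoter, with its summit at −11707 bp from the canonical TSS, and counts for RSAD2 only because annotated transcripts start there.

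EPSTI1, a gene induced by interferon and by contact of epithelial with stromal cells, lies on the minus strand at chr13:43460524-43566407. It was the gene whose H3K27ac percentile was higher in siDLEU1 cells, at 67.1 against 41.1 in control cells, a difference of 26.0 points. The region itself was narrower, at 744 against 1300 bp, and its summit had 77 fragments against 106. The local background that the peak caller took from the control library at the summit was 2 fragments in control cells and 0.546 in siDLEU1 cells. Fold enrichment divides by this background, and with regions ranked by fragments the difference was −11.1 points. H3K4me3 at EPSTI1 was close under both siRNAs in height, with 68.2 and 68.6 fragments per 10 M reads, but its region was 2258 and 1634 bp wide. The ISRE core and the GAS of EPSTI1, which overlap, lay inside the regions of all 4 lists.

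Regions were also shorter in siDLEU1 cells. The length of the TSS windows covered by H3K27ac was shorter at 9 of the 10 genes, against 93.8% of all genes, a share that does not set them apart. Its median difference was −386.5 bp, against −268 bp, with genes that had no region left set to 0 bp. That median counts the region shared by CMPK2 and RSAD2 for each of them. Over genes called under both siRNAs the H3K27ac median was −222 bp, against −261 bp, so the order turned. For H3K4me3 the covered length was shorter at all 8 genes with the mark, against 66.2% of all genes. The median difference was −392.5 bp against −94 bp, and −245.5 bp against −84 bp over genes called under both siRNAs. Among the 6 genes that kept H3K4me3, the difference ran from −22 bp at PML to −832 bp at SP100. The canonical TSS itself lay inside an H3K27ac region at 5 genes under siCONT and at 3 under siDLEU1, and inside an H3K4me3 region at 5 and 4. Over all genes these shares were 39.3% and 25.6% for H3K27ac and 30.1% and 34.2% for H3K4me3.

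**Figure D5:**
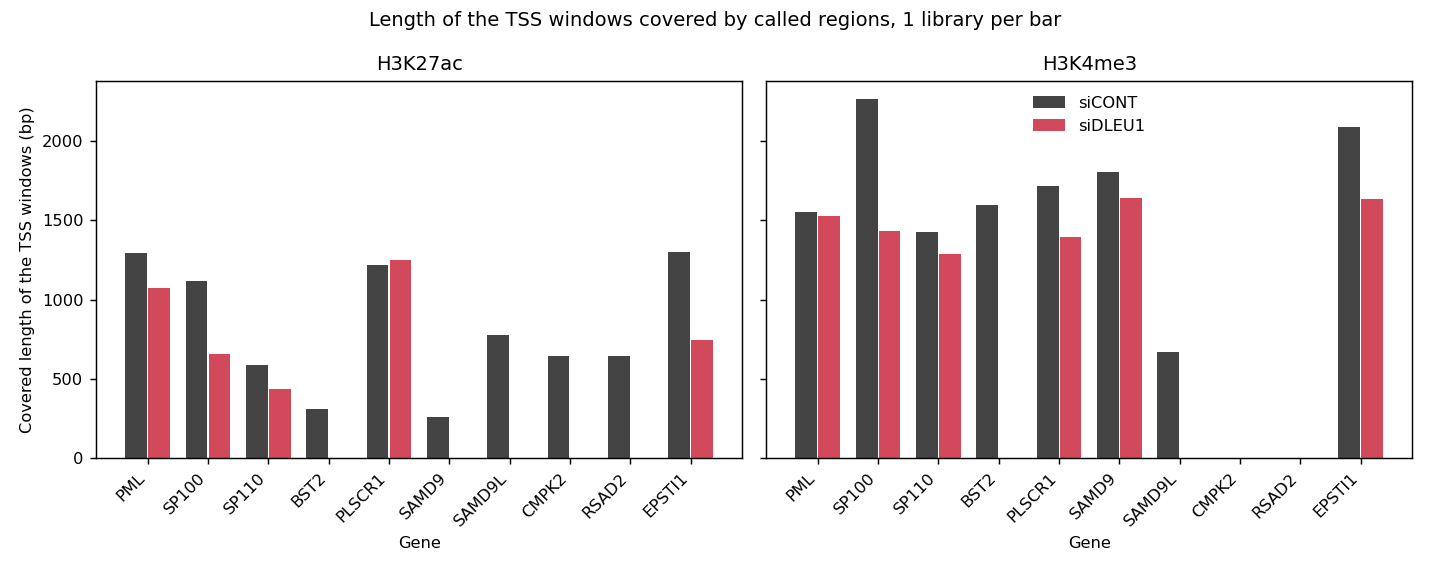
Length of the TSS windows covered by called regions (bp, from 0) for each gene, for H3K27ac (left) and H3K4me3 (right), with siCONT in dark grey and siDLEU1 in red. Bars are single libraries. H3K27ac is shorter in siDLEU1 cells at 9 genes and longer only at PLSCR1 (1221 and 1252 bp), and H3K4me3 is shorter at all 8 genes that had it in control cells.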

How the data were processed

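HSC3 cells were profiled 72 h after transfection. Libraries were sequenced on an Ion Proton, and the authors aligned the reads to hg19 (bowtie2), ran MACS2 once per library and deposited the 4 resulting narrowPeak lists. The fold enrichment ratio in the deposited lists is that of the summit over the local background. The deposited −log10 p and q values are those of MACS2, and the deposited score, a display value, was not used. MACS2 settings are not given in the sources used here. The 2 input libraries were not analysed here.

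Regions on chromosomes 1 to 22 and X were set against GENCODE transcripts on GRCh37 of 24135 genes (19143 protein-coding, 4992 lncRNA) with a curated RefSeq transcript of the same symbol. A gene counted as marked if at least 1 bp of a region lay within 1 kb of one of its TSSs. Of 56 names in the list of other interferon-stimulated genes, 55 matched. Fragments at the summit were solved from fold enrichment and p under the default formulas of MACS2, which are assumed, and divided by a depth solved from the scaling and background of the control. Every fragment level and ratio rests on that assumption. The solved number of fragments lay close to a whole number at 100% of regions. The scale was fitted to give whole numbers and the background was solved from p, so this does not test the assumption. Fragment lengths of 187 and 176 bp for H3K27ac and 200 and 186 bp for H3K4me3 enter the pileup and differ between the siRNAs. Intervals are exact Poisson, and for ratios exact binomial, at 95%, and cover counting error only. Overlap, rank and recovery functions were tested on simulated data.

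All 10 genes were named. They, the lists and the alternatives were chosen with earlier results of these data known. The shares by step of percentile, the count with CMPK2 and RSAD2 taken once, the share of genes with an interval below the median, the scaled values and base composition were added after the values were seen. No test was run, because each group has 1 library. Scripts ran under scipy 1.17.1 and pandas 2.3.3, with numpy 2.4.6 on Python 3.11.15.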

Additional observations from a re-analysis of the deposited data

How the results depend on the processing

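No paired analysis was possible because each siRNA and mark has 1 library. No replicate was left out, for the same reason. A region that is not called fell short of the threshold of the peak caller, which does not show that the mark was absent. The causes of the differences below were not tested.

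The median difference in H3K27ac percentile of the antiviral genes was −9.39 with a −log10 q of at least 10. Over all genes it was −11.2, so the antiviral genes then no longer stood below the rest. Their median was −8.89 with 1 TSS per gene (−4.5 over all genes), −20.2 with equal numbers of regions (−1.58) and −18.5 with ranks by recovered fragments (−4.47). With CMPK2 and RSAD2 counted once, an alternative chosen after seeing the data, it was −8.89, with 8 of 9 lower and 4 of 9 with no region left. With equal numbers of regions 3 of 8 genes had no H3K27ac region left, against 4.03% of all genes. BST2 and SAMD9 then had none in control cells either. At a −log10 q minimum of 10, 5 of 8 genes had none left, against 15.4% of all genes, but these were SP100, SP110, SAMD9L, CMPK2 and RSAD2. For H3K4me3 the median difference was −4.40 at a −log10 q minimum of 10 (1.66 over all genes) and −8.07 with a window of 3 kb (0.218). It was −6.91 with an overlap of 50% of the region (0.36), −11.8 with ranks by −log10 p (0.321) and −15.5 with ranks by fragments (0.357). All 8 genes with H3K4me3 were lower under either of these rankings, against 47.7% and 46.9% of all genes. The other 64 summary values stayed within the tolerance set for each, and no median changed sign under any alternative. A window of 0.5 kb changed none of these summaries of the antiviral genes. A background of protein-coding genes cannot change their values, which are among the 64, and alters only those of all genes. For H3K27ac it gave 5.17% of all genes with no region left and a median difference of −4.33 points.

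Among single genes, the H3K4me3 percentile reversed with ranks by −log10 p at PML (−0.71), SP100 (−1.68) and EPSTI1 (−0.11) and with ranks by fragments at PML (−6.01), SP100 (−6.73) and EPSTI1 (−1.55), as did H3K27ac at EPSTI1 with ranks by fragments (−11.1). With an overlap of 50% of the region, which drops wide regions, the H3K4me3 difference became 47.8 points and 1643 bp at SAMD9 and 731 bp at SP110. The covered length at PLSCR1 reversed to 178 bp for H3K4me3 at that stricter −log10 q minimum of 10 and to −360 bp for H3K27ac with a window of 3 kb.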

Other observations

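Genes whose TSSs share a window with these genes did not all follow them. MVB12A, next to BST2, kept H3K27ac at another TSS, at percentile 80.2 under siCONT and 71.7 under siDLEU1, and H3K4me3 at 72.5 and 61.8, with 5 and 2 regions. BISPR, whose TSSs lie in the same window as those of BST2, had 1 H3K27ac and 3 H3K4me3 regions in control cells and 0 of either in siDLEU1 cells. Its H3K27ac region, of 309 bp with 20 fragments, is that of BST2 counted again. The upstream H3K4me3 region of BST2 also counts for BISPR, so BISPR is not a separate observation. SP140, which starts upstream of SP110 on the opposite strand, had no H3K27ac region under either siRNA, and its H3K4me3 percentile was 4.32 and 40.2. Away from the TSS windows, within 10 kb of the gene, H3K4me3 regions were fewer in siDLEU1 cells at PLSCR1 (4 and 1), PML (8 and 5) and BST2 (2 and 0). They were more numerous at SAMD9 (0 and 2), SP110 (2 and 3) and EPSTI1 (3 and 4), equal at SP100 and SAMD9L (1 and 1), and absent from the lists at CMPK2 and RSAD2. A region between neighbouring genes counts for each of them, and the same count over all genes was not made.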
